A study of Homo sapiens with 10 samples.

Results

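The transcriptome of T47D cells in which *CHD4* was silenced was compared with that of cells given a control siRNA. The comparison rests on 4 of the 10 libraries of the study, chosen by their labels: 2 libraries of CHD4 siRNA and 2 of control siRNA, all counted in the same table. Of the 18973 genes in that table, 12918 had over 2 CPM, counts scaled to the library total, in at least 2 of the 4 libraries and were tested. T47D cells are an established line of luminal human breast cancer that is oestrogen receptor-positive. The cells were transfected with siRNA and total RNA was taken 72 h later, and the study removed ribosomal RNA before sequencing. The other 6 libraries hold *TRPS1* siRNA samples and ChIP-seq of TRPS1 with its inputs, and were not used in these tests. The labels and the RNA interference methods name an siRNA for *CHD4*, whereas the sequencing methods name an shRNA. No genotype or drug differs between the groups per the labels. Nothing states that the 2 libraries of a group came from separate cultures, so p values measure the spread between these libraries, which may be technical.

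CHD4 is an ATP-driven chromatin remodeler and the motor subunit of NuRD, the nucleosome remodeling and deacetylase complex. NuRD joins nucleosome sliding by CHD4 (or its relatives CHD3 and CHD5) with histone deacetylation by HDAC1 and HDAC2, and MTA, MBD, GATAD2 and RBBP subunits hold the complex together. It is best known for keeping silent genes of other lineages silent. It also has roles at active enhancers, in DNA repair and in cell cycle progression. The study silenced *CHD4* to ask what NuRD contributes to repression by the GATA-type factor TRPS1.

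The reagents are shown because silencing rests on them. The study lists 1 control siRNA and 2 siRNAs against *CHD4*, each of 19 bases, and does not state which *CHD4* siRNA was used for sequencing or which strand is written.
Control siRNA: uucuccgaacgugucacgu
CHD4 siRNA#1: cgggaguucaguaccaaua
CHD4 siRNA#2: gggcugcuuacuugaacau

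The libraries held between 10754802 and 14668358 counts. Control siRNA replicate 1 stood apart from the other 3. It had counts for 14636 genes, whereas the others had counts for 16779 to 17774. The median size of the log2 difference between replicates was 0.73 for control siRNA and 0.26 for CHD4 siRNA. The 2 control libraries correlated across the genes tested with a Pearson's r of 0.872 on the log2 CPM scale and the 2 CHD4 libraries with 0.966, where genes are not independent replicates. Fold changes against control replicate 1 followed gene length in the RefSeq annotation, which gives a length for 12711 of the genes tested. Among the shortest 1589 genes, up to 5.96 kb, the median log2 fold change was -0.38 against control replicate 1 and 0.08 against control replicate 2. Among the longest 1589 genes, from 130.2 kb, it was 0.51 and 0.06. With both controls it was -0.20 among the shortest and 0.22 among the longest. At the threshold for a call given below, 2.14% of the shortest genes were higher and 5.66% lower. Of the longest, 5.54% were higher and 0.881% lower, so calls followed length as well. For this reason fold changes below are also given against each control library alone, or as a bound or a ratio of counts where a control had at most 3 counts. The luminal markers *KRT8*, *KRT18*, *KRT19*, *EPCAM*, *CDH1*, *GATA3*, *FOXA1*, *ESR1*, *PGR* and *MUC1* had at least 927 counts in every library. Of 10 leukocyte markers 8 were in the table and none was called. *PTPRC*, which defines leukocytes, had 0 counts in 3 libraries and 3 in the other, and the 8 summed to 6.96 to 10.3 CPM of the library total in the controls and 11.2 to 14.5 CPM in the CHD4 siRNA libraries. Of 8 endothelial markers 6 were in the table, none was called, and they summed to 3.23 to 6.95 CPM and 3.81 to 7.04 CPM. *CDH5*, *EMCN* and *KDR* had at most 3 counts in any library, *VWF* had 0 and 1 in the controls against 15 and 8, *CLDN5* had 0 to 37 and *ESAM* 23 to 64. Of 10 fibroblast markers 6 were in the table, and they summed to 61.5 to 147 CPM and 77.0 to 107.6 CPM, with *COL1A1* at 738 to 2134 counts. *COL1A2*, *LUM* and *PDGFRA* had at most 3 counts in any library and *PDGFRB* had 0 and 1 in the controls against 21 and 22. *THY1* had 22 and 14 counts against 185 and 135, was the 1 marker of the 3 lists called, and is described below. Any part of other cells in the results was not tested.

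**Figure D1:**
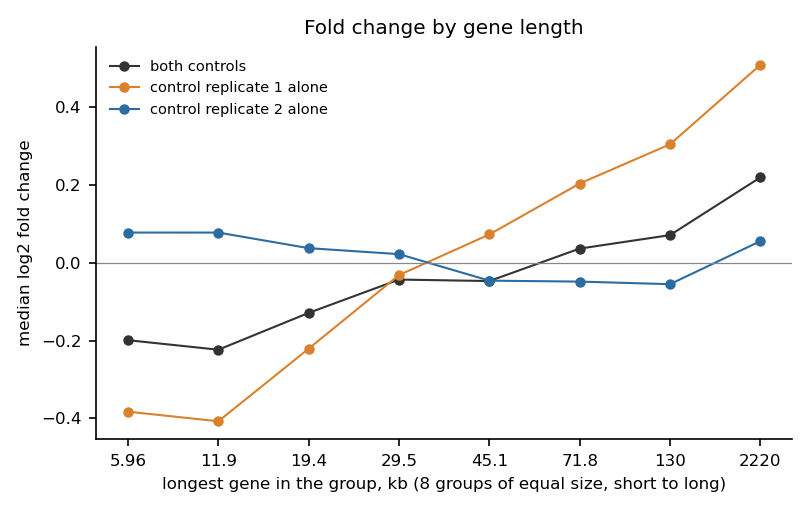
Median log2 fold change (vertical axis) upon silencing *CHD4* in 8 groups of genes of equal size, ordered by gene length (horizontal axis, longest gene of each group in kb). The line for control siRNA replicate 1 alone climbs from -0.38 to 0.51, whereas the line for control siRNA replicate 2 alone stays between -0.06 and 0.08.

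Silencing was read from *CHD4* itself. *CHD4* had 4099 and 3784 counts in control siRNA replicates 1 and 2 and 1026 and 677 counts in CHD4 siRNA replicates 1 and 2. Both CHD4 siRNA libraries lay below both control libraries, and replicate 2 held the lesser *CHD4* signal. On the CPM scale with TMM factors, which is used from here on with the library order kept, the values were 296 and 282 CPM against 94.9 and 53.8 CPM. The fold change was -1.96 ± 0.42 on the log2 scale (SE, edgeR's quasi-likelihood fit), with -1.99 against control replicate 1 and -1.91 against control replicate 2. Its Benjamini-Hochberg adjusted p in edgeR was 0.784. Without CHD4 siRNA replicate 1 the log2 fold change was -2.42, and without replicate 2 it was -1.59 and no longer passed the threshold for a call given below.

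Of the 15 NuRD subunits tested, *CHD4* alone passed a fold change over 2 with an unadjusted p under 0.05, the threshold for a call used throughout. A gene that passed it is said below to have risen or fallen. Of all genes tested, 2.6% were called higher and 2.85% lower. The paralogs that can replace CHD4 in the complex were not called: *CHD3* stood at 243 and 155 CPM against 181 and 164 CPM (log2 fold change -0.21, with -0.496 against control replicate 1 and 0.17 against control replicate 2) and *CHD5* at 71.8 and 42.7 CPM against 61.02 and 78.5 CPM (0.29, with -0.04 against control replicate 1 and 0.72 against control replicate 2). In both, the groups overlapped. The deacetylase *HDAC1* stood at 101 and 112 CPM against 133 and 128 CPM and *HDAC2* at 48.1 and 114 CPM against 115 and 132 CPM, both without a call. *HDAC1* had 0.297 on the log2 scale, with 0.37 against control replicate 1 and 0.24 against control replicate 2, and *HDAC2* had 0.605, with 1.36 against control replicate 1 and 0.12 against control replicate 2. *MTA2*, the scaffold subunit named with CHD4 in the study, stood at 236 and 144 CPM against 97.1 and 104 CPM, below the controls in both CHD4 siRNA libraries. It differed, without a call, by -0.92 ± 0.396 (SE) on the log2 scale, with -1.23 against control replicate 1 and -0.51 against control replicate 2. The methyl-CpG reader *MBD2* had -0.99, just short of a 2-fold change, with -1.26 against control replicate 1 and -0.66 against control replicate 2.

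Across the transcriptome, 336 genes rose and 368 fell. When the libraries were scaled by size without TMM factors, 458 rose and 222 fell, and the median of all genes tested moved from -0.02 to 0.11. No gene passed an adjusted p under 0.05 in edgeR's quasi-likelihood test, where the smallest was 0.749, while 769 genes had an unadjusted p under 0.05. The likelihood ratio test of edgeR passed 58 genes at that adjusted p and DESeq2 passed 50, and 41 genes passed in both. The 30 genes farthest higher and lower that are named below had adjusted p values from 0.749 to 0.792 in edgeR's quasi-likelihood test, so unadjusted p values are not printed and a call is a threshold, not a corrected test. With 2 libraries against 2, an exact permutation test of a single gene could not go below p = 0.333. Of all genes tested, 20.1% lay higher in both CHD4 siRNA libraries than in both controls and 19.7% lower, so a lack of overlap alone is common here. Of the 336 higher calls, 278 held without control replicate 1, 313 without control replicate 2, 58 without CHD4 siRNA replicate 1 and 120 without CHD4 siRNA replicate 2. Of the 368 lower calls, 132, 344, 49 and 87 held in the same order.

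The 2 directions differed in how they held against each control. Of the 336 genes that rose, 263 (78.3%) were also over 2-fold higher against each control library alone. These same 263 were 2.04% of all genes tested. Of the 368 that fell, 111 (30.2%) were also over 2-fold lower against each control alone, and these same 111 were 0.859% of all genes. Genes over 2-fold against each control without a call were not counted, so 78.3% and 30.2% have no background share beside them. Against control replicate 2 alone, 706 genes were called higher and 278 lower, 5.47% and 2.15% of those tested. Against control replicate 1 alone, 2266 were called higher and 1729 lower, 17.5% and 13.4%. Genes that rose against each control were mostly low in control cells, with a median control level of 2.39 CPM against 11.5 CPM upon silencing *CHD4*. Of these 263, 119 had a control mean under 2 CPM and 104 passed the filter through the CHD4 siRNA libraries alone, so for these 104 a difference was built into the filter. The 336 held no more than these 104 such genes, so the 78.3% rests in part on the filter. Genes that fell against each control had a median of 64.4 CPM in control cells and 24.5 CPM upon silencing, and none had a control mean under 2 CPM. Of these 111, 7 passed the filter through the controls alone, and the 368 held no more than these 7. RefSeq gave a median gene length of 38.5 kb for the former and 17.7 kb for the latter, beside 29.5 kb for all genes tested. Protein-coding genes made up 92.3% and 98.1% of the annotated genes in these sets and 93.9% of all genes tested.

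**Figure D2:**
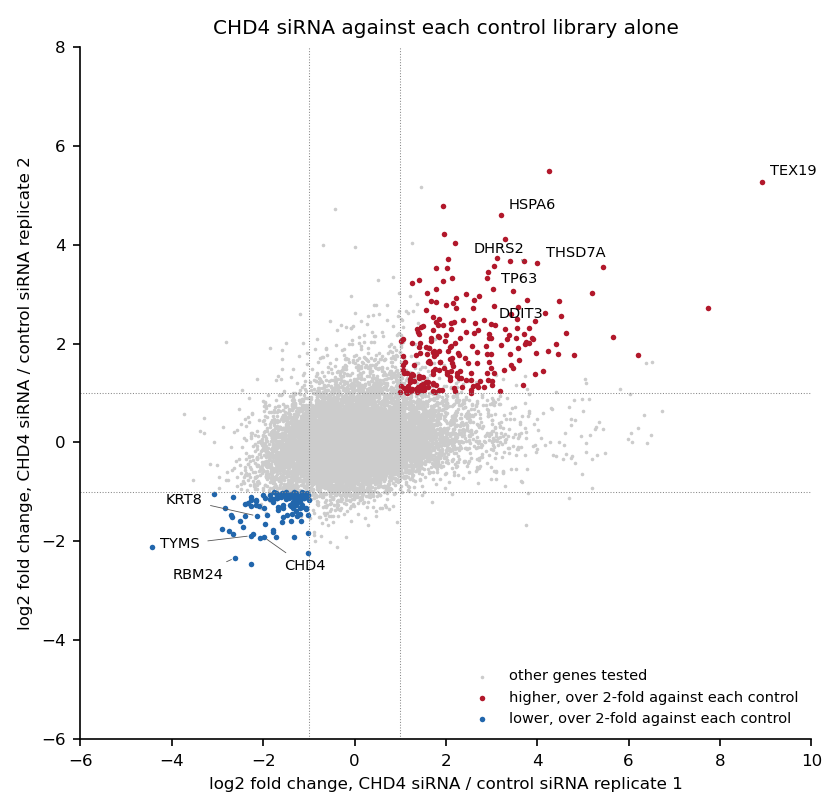
Log2 fold change upon silencing *CHD4* against control siRNA replicate 1 alone (horizontal axis) and against control siRNA replicate 2 alone (vertical axis), for the 12729 genes with a count in every library. Each point is a gene, dotted lines mark 2-fold, *DHRS2* lies at 3.71 and 3.67 to the upper right, and *CHD4* lies at -1.99 and -1.91.

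The genes that rose farthest against both controls are ranked by the smaller of their 2 fold changes. They come from 203 called genes over 2-fold higher against each control, with groups apart and at least 5 CPM upon silencing. *TEX19*, a gene of germ cells and placenta, stood at 0.144 and 1.94 CPM against 96.7 and 52.8 CPM. The CHD4 siRNA libraries, with their counts and sizes pooled, were at 506 times control replicate 1 (95% exact counting interval 139.8 to 4181, from 2 control counts). The log2 fold change was 5.27 against control replicate 2. *DHRS2*, a short-chain dehydrogenase, stood at 3.39 and 3.499 CPM against 33.9 and 54.7 CPM, with nearly equal controls. The log2 fold change of *DHRS2* was 3.68 ± 0.48 (SE), with 3.71 against control replicate 1 and 3.67 against control replicate 2. *THSD7A*, a membrane protein with thrombospondin repeats, stood at 1.37 and 1.79 CPM against 25.6 and 18.7 CPM (log2 fold change 3.802 ± 0.53 SE, with 4.003 against control replicate 1 and 3.63 against control replicate 2). *THY1*, a surface glycoprotein of fibroblasts and neurons, stood at 1.59 and 1.04 CPM against 17.1 and 10.7 CPM (log2 fold change 3.39 ± 0.62 SE, with 3.12 against control replicate 1 and 3.74 against control replicate 2). *PTGS1*, the constitutive cyclooxygenase of prostaglandin synthesis, stood at 2.02 and 1.41 CPM against 20.1 and 13.6 CPM (log2 fold change 3.28 ± 0.57 SE, with 3.05 against control replicate 1 and 3.57 against control replicate 2). No library of either group overlapped the other in these genes, which was a condition of the choice. *SLC2A3*, a high-affinity glucose transporter, stood at 0.721 and 0.968 CPM against 11.8 and 4.45 CPM (log2 fold change 3.25 ± 0.78 SE, with 3.47 against control replicate 1 and 3.06 against control replicate 2). The pseudogene *ANKRD20A19P* stood at 1.59 and 0.893 CPM against 24.5 and 6.84 CPM, with 3.29 against control replicate 1 and 4.12 against control replicate 2.

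Several of the farthest risers were at or near 0 in control cells, so their fitted fold changes depend on the prior count and only bounds or counting intervals are given. *SERPINA5*, a secreted inhibitor of serine proteases, had 0 and 9 counts in the controls and 282 and 107 upon silencing, at least 76.7-fold higher than the floor of 3 counts in control replicate 1. Its log2 fold change against control replicate 2 was 4.68. *SLITRK6*, a membrane protein that guides neurite growth, had 0 and 7 counts against 178 and 93, at least 53.4-fold higher than that floor and 4.497 on the log2 scale against control replicate 2. *MAGEA10*, a cancer-testis antigen, had 0 and 11 counts against 198 and 99, at least 58.6-fold and 3.99. *GRIK2*, a kainate-type glutamate receptor, had 0 and 8 counts against 98 and 59, at least 31.0-fold and 3.51. *AACSP1*, a pseudogene of acetoacetyl-CoA synthetase, had 0 and 18 counts against 165 and 88, at least 49.9-fold and 3.05. All of these showed both CHD4 siRNA libraries above both controls, as the choice required, with replicate 1 the higher. *CPS1*, the urea cycle enzyme carbamoyl phosphate synthetase, had 1 and 0 counts in the controls and 107 and 30 upon silencing, 81.1 times control replicate 1 (95% counting interval 14.3 to 3225) and at least 26.2-fold higher than the floor in control replicate 2. *CREB5*, a bZIP transcription factor, had 5 and 2 counts against 126 and 33. It was 45.6 times control replicate 2 (12.4 to 379.6) and 4.26 on the log2 scale against control replicate 1. The intervals cover counting error only. Of the 15 genes (the 14 above and *HSPA6*, given with the stress genes), 13, all but *DHRS2* and *HSPA6*, passed the filter through the CHD4 siRNA libraries alone. The choice required over 2-fold against each control alone, so it fixed the fold part of a call without either control replicate. Of the 15, 15 kept their call without control replicate 1, 14 without control replicate 2, 11 without CHD4 siRNA replicate 1 and 15 without CHD4 siRNA replicate 2.

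The genes that fell farthest were chosen in the same way, from 109. *RBM24*, an RNA-binding protein that regulates splicing, stood at 33.2 and 27.5 CPM against 5.27 and 5.56 CPM. *RBM24* changed by -2.48 ± 0.44 (SE) on the log2 scale, with -2.61 against control replicate 1 and -2.33 against control replicate 2. *FAM65C* stood at 105 and 120.1 CPM against 28.8 and 14.8 CPM (log2 fold change -2.37 ± 0.46 SE, with -2.27 against control replicate 1 and -2.45 against control replicate 2). *LITAF*, an endosomal membrane protein, stood at 319 and 249 CPM against 77.7 and 58.7 CPM (log2 fold change -2.06 ± 0.39 SE, with -2.23 against control replicate 1 and -1.86 against control replicate 2). *KPNA2*, an importin alpha that carries proteins into the nucleus, was abundant at 692 and 709.8 CPM against 169 and 235 CPM (log2 fold change -1.797 ± 0.37 SE, with -1.78 against control replicate 1 and -1.805 against control replicate 2). *EFTUD2*, a GTPase of the U5 spliceosome particle, stood at 275 and 275 CPM against 85.6 and 75.1 CPM (log2 fold change -1.77 ± 0.36 SE, with -1.78 against control replicate 1 and -1.76 against control replicate 2). The groups did not overlap in any of them, as the choice required, and *FAM65C* differed most between the CHD4 siRNA libraries. *PUDP*, a pseudouridine phosphatase, stood at 43.6 and 49.95 CPM against 13.7 and 12.7 CPM (log2 fold change -1.83 ± 0.396 SE, with -1.72 against control replicate 1 and -1.91 against control replicate 2).

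Other genes that fell as far varied more between the controls. *CITED1*, a transcriptional coregulator, stood at 11.1 and 2.23 CPM against 0.0925 and 0.874 CPM (log2 fold change -3.73 ± 1.18 SE, with -4.44 against control replicate 1 and -2.12 against control replicate 2). Control replicate 1 was the high library there, and CHD4 siRNA replicate 1 held 1 count. *NXPH3*, a secreted ligand of neurexins, stood at 34.8 and 15.9 CPM against 4.16 and 5.17 CPM and *ZMYND10*, a factor for assembling the motors of cilia, at 13.3 and 7.15 CPM against 1.29 and 3.34 CPM. Their log2 fold changes were -2.44 (-2.89 against control replicate 1 and -1.75 against control replicate 2) and -2.13 (-2.505 against control replicate 1 and -1.595 against control replicate 2). *THRSP*, a nuclear regulator of lipid synthesis, stood at 27.6 and 16.8 CPM against 5.18 and 5.01 CPM (log2 fold change -2.12 ± 0.49 SE, with -2.43 against control replicate 1 and -1.71 against control replicate 2). *KCNK5*, *TYMS*, *OVOL2* and *GRHL3* complete the 15 with *CHD4* and are described with their pathways. Here too the choice fixed the fold part of a call without either control replicate. Of the 15, *CITED1* and *GRHL3* passed the filter through the controls alone. All kept their call without either control replicate, 10 without CHD4 siRNA replicate 1 and 13 without replicate 2.

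**Figure D3:**
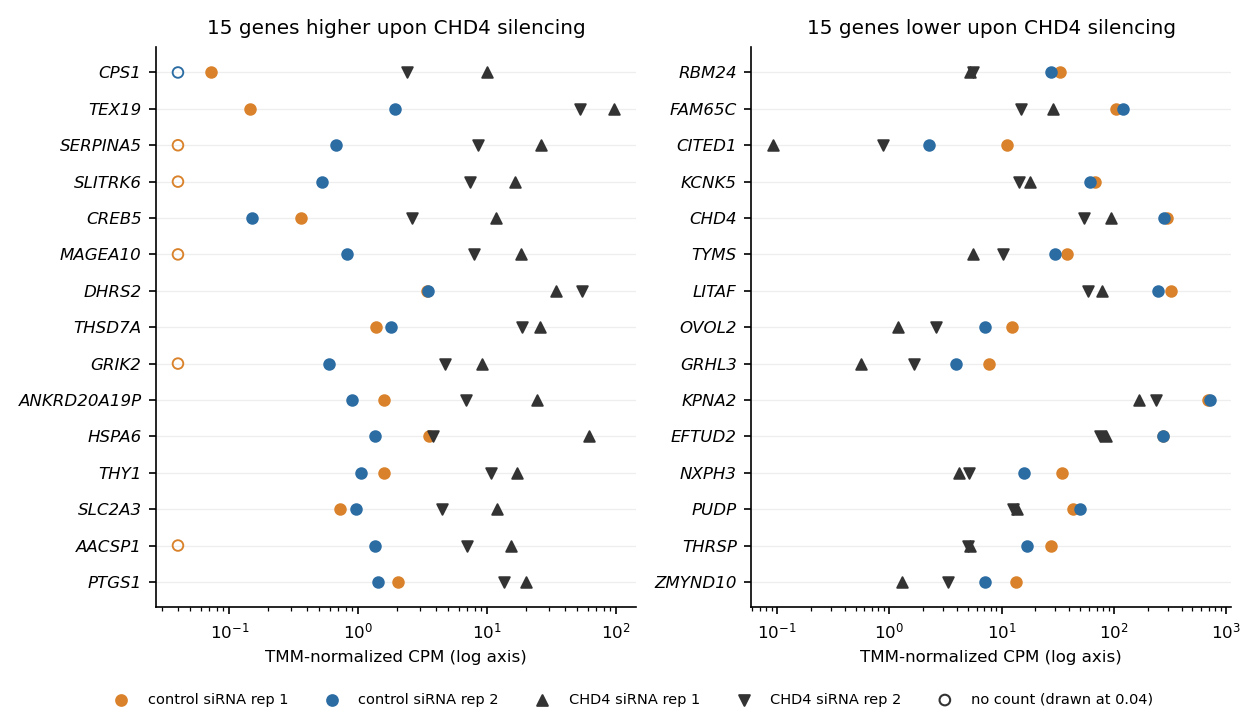
TMM-normalized CPM (log axis) of the 15 genes farthest higher (left) and the 15 farthest lower (right) upon silencing *CHD4*, each gene on a row and each library as a point, with open circles for libraries without a count. In every row both CHD4 siRNA libraries (triangles) lie on the same side of both control libraries (circles), as the choice required. *HSPA6* is the row where a CHD4 siRNA library, at 3.82 CPM, lies near a control library, at 3.53 CPM.

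Genes of DNA replication were lower upon silencing *CHD4*. They load the MCM helicase on replication origins, make nucleotides and copy DNA, and they peak at the start of S phase under the E2F factors. All 46 on the list were tested, 10 fell and none rose. The median log2 fold change was -0.80, against -0.02 for all genes tested, and it was -0.75 against control replicate 1 and -0.79 against control replicate 2. Of the 46 members, 42 were lower against each control alone, whereas 3439 of the 12918 genes tested were. Of the 10 that fell, 5 did so over 2-fold against each control. In bulk RNA, fewer cells in a phase and less RNA per cell cannot be told apart. *TYMS*, thymidylate synthase, stood at 38.2 and 29.7 CPM against 5.55 and 10.3 CPM. The log2 fold change of *TYMS* was -2.09 ± 0.49 (SE), with -2.26 against control replicate 1 and -1.89 against control replicate 2. *MCM5*, a helicase subunit, stood at 84.03 and 43.2 CPM against 9.89 and 27.6 CPM (log2 fold change -1.76 ± 0.60 SE, with -2.16 against control replicate 1 and -1.19 against control replicate 2). The helicase subunit *MCM4* stood at 490.2 and 346 CPM against 101 and 229 CPM (log2 fold change -1.34, with -1.57 against control replicate 1 and -1.06 against control replicate 2). *GINS2*, a subunit of the GINS complex that joins the helicase, stood at 257 and 85.7 CPM against 31.2 and 64.6 CPM (log2 fold change -1.84, with -2.42 against control replicate 1 and -0.83 against control replicate 2), with the larger difference against control replicate 1. *CCNE1*, the cyclin of entry into S phase (log2 fold change -1.27, with -1.03 against control replicate 1 and -1.47 against control replicate 2), and *CHAF1B*, a histone chaperone subunit (-1.23, with -1.38 against control replicate 1 and -1.04 against control replicate 2), also fell over 2-fold against each control. *TK1*, *MCM7*, *MCM3* and *RFC2* made up the rest.

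The 2 CHD4 siRNA libraries differed in these genes. All 46 members were lower in replicate 1 than in replicate 2, with a median ratio of replicate 2 to replicate 1 of 2.20. The share of all genes tested that were lower in replicate 1 was not counted. The median log2 fold change was -0.39 without CHD4 siRNA replicate 1 and -1.55 without replicate 2. None of the 10 calls held without replicate 1, 6 held without replicate 2 and 5 held without control replicate 1. *CHD4* itself was higher in replicate 1, at 94.9 CPM, than in replicate 2, at 53.8 CPM.

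Promoters of 3 replication genes that fell are printed because E2F factors act on such sequences. They are RefSeq sequences of GRCh38.p14, from 250 bases before to 50 bases after the start of the gene, in the direction of the gene, with E2F letters in capitals. The letters searched were TTTCCCGC, TTTGGCGC, TTTCGCGC and TTTGCCGC on both strands, and matches on opposite strands can overlap.
TYMS (chr18:657403-657702, plus strand): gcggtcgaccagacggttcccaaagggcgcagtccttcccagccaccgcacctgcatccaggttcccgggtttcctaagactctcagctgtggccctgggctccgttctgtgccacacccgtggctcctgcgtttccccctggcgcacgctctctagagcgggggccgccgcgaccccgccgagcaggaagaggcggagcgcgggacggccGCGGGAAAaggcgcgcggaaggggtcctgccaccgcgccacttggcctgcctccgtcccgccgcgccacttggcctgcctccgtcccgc
GINS2 (chr16:85688905-85689204, minus strand): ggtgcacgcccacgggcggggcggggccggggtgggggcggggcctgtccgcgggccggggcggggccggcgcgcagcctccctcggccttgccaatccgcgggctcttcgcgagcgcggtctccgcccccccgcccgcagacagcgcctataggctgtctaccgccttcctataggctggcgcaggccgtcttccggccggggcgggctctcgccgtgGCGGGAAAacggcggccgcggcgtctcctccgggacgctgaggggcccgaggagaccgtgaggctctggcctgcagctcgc
MCM7 (chr7:100101348-100101647, minus strand): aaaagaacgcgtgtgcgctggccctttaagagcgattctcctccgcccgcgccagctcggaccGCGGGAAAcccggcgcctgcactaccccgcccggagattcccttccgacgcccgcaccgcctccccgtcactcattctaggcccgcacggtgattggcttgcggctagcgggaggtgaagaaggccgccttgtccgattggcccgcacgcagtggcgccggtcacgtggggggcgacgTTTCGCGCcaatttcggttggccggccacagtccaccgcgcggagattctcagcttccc
Of the 10 members that fell, 8 had a promoter in the RefSeq table and 4 of these held a match (*MCM3*, *MCM7*, *GINS2* and *TYMS*). Of the other members tested, 16 of 31 did, as did 3.99% of all 27305 genes with a promoter window and 3.31% of all 35116 windows. The share among members that fell (50%) was close to that among the other members (51.6%). A match is a description of the letters and not a bound site.

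Mitosis genes drive the separation of chromosomes after replication. Of 43 mitosis genes tested, 5 fell and none rose, with a median log2 fold change of -0.68 (-0.53 against control replicate 1 and -0.82 against control replicate 2). Of the 43, 31 (72.1%) were lower against each control, beside 26.6% of all genes tested. *AURKA*, the kinase of spindle poles, stood at 241 and 208 CPM against 63.5 and 100.5 CPM and was the member over 2-fold lower against each control (log2 fold change -1.45 ± 0.397 SE, with -1.56 against control replicate 1 and -1.33 against control replicate 2). *UBE2C*, which with the anaphase-promoting complex marks cyclins for destruction, stood at 274 and 87.3 CPM against 36.9 and 60.3 CPM (log2 fold change -1.89, with -2.49 against control replicate 1 and -0.83 against control replicate 2). *INCENP*, *PLK1* and *CDC25B*, a scaffold, a kinase and a phosphatase of mitosis, had log2 fold changes of -1.59, -1.35 and -1.21 with both controls, of -2.08, -1.81 and -1.55 against control replicate 1 alone and of -0.82, -0.66 and -0.75 against control replicate 2 alone. *MKI67*, the proliferation marker, was not called at 339 and 323 CPM against 123 and 289.9 CPM (-0.68, with -0.72 against control replicate 1 and -0.64 against control replicate 2). All 43 members were lower in CHD4 siRNA replicate 1 than in replicate 2, again without a share of all genes beside it. None of the 5 calls held without CHD4 siRNA replicate 1, where the median was -0.24, and 4 held without replicate 2, where it was -1.32. Without control replicate 1, 1 of the 5 held.

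Of 36 genes of homologous recombination and the Fanconi pathway, which repair broken and crosslinked DNA, 3 fell and none rose. *CHEK2*, a checkpoint kinase, stood at 52.2 and 64.3 CPM against 22.1 and 27.9 CPM and fell over 2-fold against each control (log2 fold change -1.22 ± 0.40 SE, with -1.06 against control replicate 1 and -1.35 against control replicate 2). *FANCG* and *FANCA*, of the Fanconi core complex, had -1.26 and -1.21 with both controls, -1.55 and -1.44 against control replicate 1 alone and -0.87 and -0.92 against control replicate 2 alone. The list's median was -0.44, but it was 0.00 against control replicate 1 and -0.62 against control replicate 2, and 0.01 without CHD4 siRNA replicate 1. Of the 3 calls, 1 held without control replicate 1, 0 without CHD4 siRNA replicate 1 and 1 without replicate 2.

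Replication-dependent histone genes supply the core and linker histones of S phase and make mRNA without a poly(A) tail, which total RNA libraries retain. Of 59 members, 48 were tested, 19 fell and none rose, with a median log2 fold change of -0.91 (-1.21 against control replicate 1 and -0.69 against control replicate 2). Of the 19, 7 fell over 2-fold against each control. Of the 48, 35 (72.9%) were lower against each control, beside 26.6% of all genes tested. The core histone gene *HIST1H3D* stood at 134 and 110.3 CPM against 38.9 and 49.4 CPM (log2 fold change -1.47 ± 0.38 SE, with -1.598 against control replicate 1 and -1.31 against control replicate 2). The linker histone gene *HIST1H1B* stood at 162 and 91.4 CPM against 32.2 and 51.5 CPM (log2 fold change -1.598 ± 0.46 SE, with -1.95 against control replicate 1 and -1.12 against control replicate 2). *HIST2H2AB* stood at 64.8 and 16.1 CPM against 7.396 and 8.03 CPM and *HIST1H2AM* at 351 and 121 CPM against 39.6 and 71.5 CPM, both highest in control replicate 1. Their log2 fold changes were -2.39 and -2.09 with both controls, -3.07 and -2.66 against control replicate 1 alone and -1.05 and -1.11 against control replicate 2 alone. They were the 2 members called in each of the 4 fits that left out a library. *HIST1H2AJ* showed the largest fold change of the list, at 243 and 35.96 CPM against 14.1 and 27.8 CPM, with -3.53 against control replicate 1 and -0.76 against control replicate 2. Histone genes are near-identical copies, so reads may be split between members. Of the 19 calls, 7 held without control replicate 1, 4 without CHD4 siRNA replicate 1 and 7 without replicate 2. Histone genes are short, and gene length moved with the fold change against control replicate 1.

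Of 17 CDKs, cyclins and inhibitors tested, 5 fell and none rose. *CDK2*, the S-phase kinase, stood at 268 and 155 CPM against 52.1 and 74.6 CPM (log2 fold change -1.74 ± 0.44 SE, with -2.08 against control replicate 1 and -1.28 against control replicate 2). *CCND1*, the oestrogen-responsive cyclin of G1, stood at 581 and 415 CPM against 208 and 203 CPM (log2 fold change -1.28 ± 0.36 SE, with -1.498 against control replicate 1 and -1.002 against control replicate 2). *CDKN1A*, the p21 inhibitor, stood at 207 and 94.4 CPM against 55.4 and 72.9 CPM, and *CDKN3*, a CDK phosphatase, at 133 and 63.9 CPM against 27.7 and 48.4 CPM, both with less than a 2-fold change against control replicate 2. Their log2 fold changes were -1.23 (-1.69 against control replicate 1 and -0.55 against control replicate 2) and -1.37 (-1.799 against control replicate 1 and -0.74 against control replicate 2). *CDKN2A*, which encodes p16, stood at 62.4 and 7.37 CPM against 6.47 and 8.27 CPM. Its call rested on control replicate 1 alone, since its log2 fold change was -2.24 with both controls, -3.08 against that library and 0.01 against control replicate 2. Of the 5 calls, 2 held without that library, 1 without CHD4 siRNA replicate 1 and 3 without replicate 2.

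Genes of luminal and oestrogen-dependent identity were lower in part. Of 27 oestrogen-responsive genes tested, 7 fell and none rose, and 6 of the 7 were over 2-fold lower against each control. The list's median log2 fold change was -0.51 (-0.55 against control replicate 1 and -0.39 against control replicate 2). *KCNK5*, a potassium channel, stood at 67.5 and 61.3 CPM against 17.8 and 14.2 CPM and was called in each of the 4 fits that left out a library (log2 fold change -2.01 ± 0.403 SE, with -2.07 against control replicate 1 and -1.93 against control replicate 2). *PDZK1*, a scaffold of membrane transporters, stood at 69.96 and 107 CPM against 31.1 and 25.2 CPM (log2 fold change -1.65 ± 0.42 SE, with -1.31 against control replicate 1 and -1.92 against control replicate 2). The chemokine *CXCL12* stood at 168 and 201 CPM against 85.3 and 74.8 CPM (log2 fold change -1.21, with -1.07 against control replicate 1 and -1.32 against control replicate 2). *STC2*, a secreted glycoprotein, stood at 716 and 669 CPM against 446 and 194 CPM, and *XBP1*, a transcription factor of secretory cells, at 1364 and 1351 CPM against 866 and 459 CPM. Their log2 fold changes were -1.11 and -1.03, close to the 2-fold limit, with -1.16 against control replicate 1 and -1.05 against control replicate 2 for *STC2* and -1.04 against control replicate 1 and -1.02 against control replicate 2 for *XBP1*. *ESR1*, the oestrogen receptor itself, was not called, at 263 and 392 CPM against 244 and 186 CPM (log2 fold change -0.61 ± 0.38 SE, with -0.29 against control replicate 1 and -0.85 against control replicate 2). *PGR*, the progesterone receptor, was not called, at 664 and 2056 CPM against 1706 and 879 CPM, with 1 control below and 1 above the CHD4 siRNA libraries (log2 fold change -0.07, with 0.96 against control replicate 1 and -0.66 against control replicate 2). *GREB1*, another classical target, was not called at 819 and 699 CPM against 585 and 406 CPM (log2 fold change -0.62, with -0.73 against control replicate 1 and -0.49 against control replicate 2). Of the 7 calls, 4 held without CHD4 siRNA replicate 1 and 1 without replicate 2.

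Keratins are the intermediate filaments of epithelium. Of 20 keratins listed, 8 were tested, 4 fell and 1 rose, each of them over 2-fold against each control. *KRT8* and *KRT18*, the partner filaments of simple epithelium, stood at 5115 and 3292 CPM against 1194 and 1136 CPM and 2559.6 and 1714 CPM against 873 and 694 CPM. *KRT8* changed by -1.85 ± 0.37 (SE), with -2.13 against control replicate 1 and -1.49 against control replicate 2, on the log2 scale. *KRT18* changed by -1.45 ± 0.38 (SE), with -1.71 against control replicate 1 and -1.12 against control replicate 2. *KRT19*, another simple-epithelial keratin, stood at 3468 and 2081 CPM against 1125 and 927 CPM and *KRT15* at 9.88 and 10.6 CPM against 4.44 and 3.26 CPM, with log2 fold changes of -1.43 (-1.76 against control replicate 1 and -1.01 against control replicate 2) and -1.41 (-1.36 against control replicate 1 and -1.45 against control replicate 2). In all 4 both CHD4 siRNA libraries were below both controls. *KRT86*, a hair keratin, had 3 and 10 counts in the controls and 45 and 25 upon silencing, 13.8 times control replicate 1 (95% counting interval 4.53 to 68.6) and 2.03 on the log2 scale against control replicate 2. It passed the filter through the CHD4 siRNA libraries alone. Hair keratins resemble each other closely, so its counts are uncertain. *KRT8* and *KRT19* were called in all 4 fits that left out a library.

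Of 25 transcription factors of luminal cells tested, 3 fell and none rose. The median was -0.23 (-0.17 and -0.26 against control replicates 1 and 2). *GRHL3*, a grainyhead factor of epithelial barriers, stood at 7.65 and 3.95 CPM against 0.555 and 1.67 CPM (log2 fold change -2.36 ± 0.82 SE, with -2.74 against control replicate 1 and -1.78 against control replicate 2), and passed the filter through the controls alone. *SPDEF* stood at 282 and 102 CPM against 88.9 and 62.8 CPM (log2 fold change -1.34, with -1.89 against control replicate 1 and -0.41 against control replicate 2), and *XBP1* is given above. *GATA3* and *FOXA1*, pioneer factors of luminal cells, were not called, at 885 and 424 CPM against 422 and 289 CPM and 257 and 288 CPM against 382 and 249 CPM. *GATA3* had -0.88 on the log2 scale, with -1.32 against control replicate 1 and -0.24 against control replicate 2, and *FOXA1* had 0.21, with 0.297 against control replicate 1 and 0.14 against control replicate 2. Among 18 genes of epithelial-mesenchymal transition and cadherins tested, 2 fell and none rose. *OVOL2*, a zinc finger factor that maintains the epithelial state, stood at 12.3 and 7.07 CPM against 1.202 and 2.62 CPM (log2 fold change -2.33 ± 0.68 SE, with -2.67 against control replicate 1 and -1.86 against control replicate 2), and *CLDN3*, a tight junction claudin, had -1.12, with -1.58 against control replicate 1 and -0.44 against control replicate 2. *CDH1*, E-cadherin, was not called at 1203 and 922 CPM against 955 and 782 CPM (log2 fold change -0.29, with -0.47 against control replicate 1 and -0.07 against control replicate 2). Of the 5 calls in both lists, 3 held without control replicate 1, 1 without CHD4 siRNA replicate 1 and 2 without replicate 2.

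**Figure D4:**
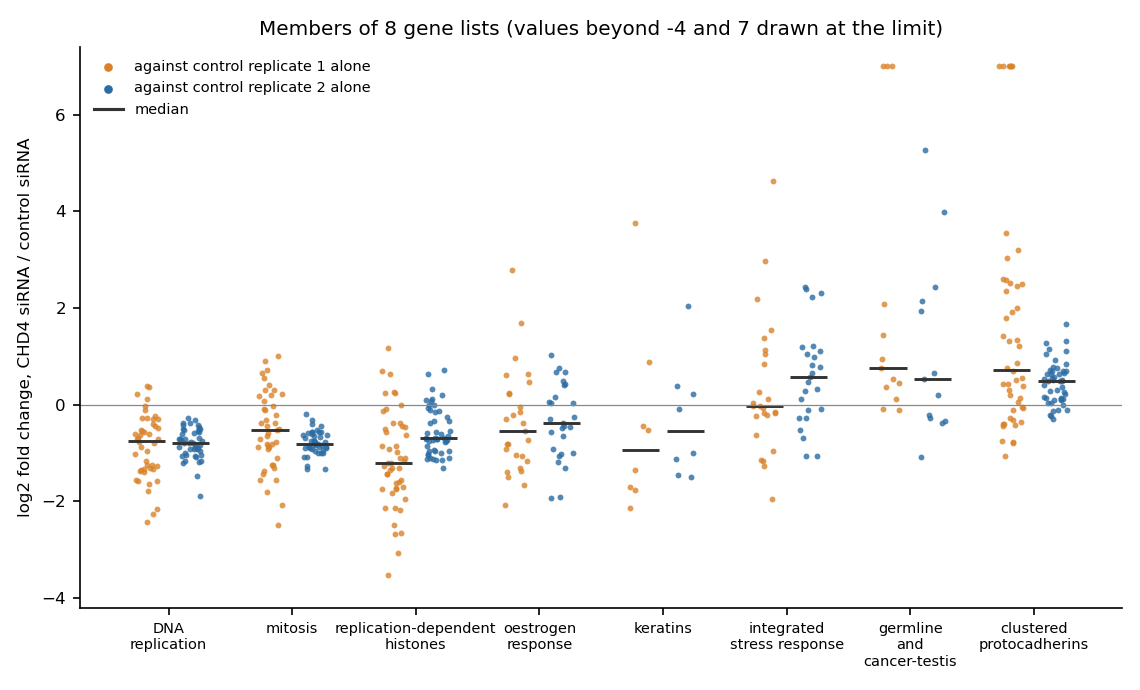
Log2 fold change upon silencing *CHD4* of each tested member of 8 gene lists against control siRNA replicate 1 alone (orange) and control siRNA replicate 2 alone (blue), with horizontal bars at the medians and values beyond -4 and 7 drawn at those limits. The medians of DNA replication (-0.75 and -0.79) and histones (-1.21 and -0.69) lie below 0 against both controls, and those of clustered protocadherins (0.72 and 0.50) lie above.

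Genes of the basal and epidermal programme were tested with *TP63*, which encodes the p63 factor of basal cells. Of 40 listed, 16 were tested, 3 rose and none fell, and 4 of the 16 passed the filter through the CHD4 siRNA libraries alone. *TP63* and *KLK8* were among these 4, so for both a difference was built into the filter. *TP63* stood at 1.95 and 1.86 CPM against 24.7 and 7.31 CPM, with nearly equal controls and a higher replicate 1 upon silencing. *TP63* changed by 3.06 ± 0.72 (SE) on the log2 scale, with 3.03 against control replicate 1 and 3.104 against control replicate 2. *KLK8*, a serine protease of skin, stood at 0.289 and 1.56 CPM against 7.77 and 3.497 CPM (log2 fold change 2.59 ± 0.95 SE, with 4.23 against control replicate 1 and 1.85 against control replicate 2). *PERP*, a desmosomal protein, stood at 25.97 and 41.7 CPM against 98.6 and 127 CPM (log2 fold change 1.74 ± 0.42 SE, with 2.12 against control replicate 1 and 1.45 against control replicate 2). The list's median was 0.11 (0.07 and -0.01 against control replicates 1 and 2), close to that of all genes tested. The call of *TP63* did not hold without CHD4 siRNA replicate 1 (1.94 on the log2 scale).

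The study named 7 further genes as repressed by TRPS1 and CHD4. These and *TP63* were chosen with these samples, so their direction is no independent evidence. *NAALADL2*, a relative of glutamate carboxypeptidase, stood at 17.8 and 40.9 CPM against 176 and 106 CPM (log2 fold change 2.26 ± 0.53 SE, with 2.99 against control replicate 1 and 1.797 against control replicate 2). *NTN4*, a netrin of basement membranes, stood at 17.7 and 17.7 CPM against 69.3 and 51.8 CPM (log2 fold change 1.77 ± 0.404 SE, with 1.78 against control replicate 1 and 1.78 against control replicate 2). *NHLRC1*, the ubiquitin ligase malin, stood at 1.73 and 2.31 CPM against 9.52 and 5.25 CPM (log2 fold change 1.86 ± 0.66 SE, with 2.08 against control replicate 1 and 1.68 against control replicate 2). *RNF43*, a ligase that removes WNT receptors, stood at 9.09 and 10.4 CPM against 25.98 and 17.6 CPM (log2 fold change 1.16 ± 0.45 SE, with 1.26 against control replicate 1 and 1.07 against control replicate 2). *ABCA12*, a lipid transporter of the epidermis, stood at 107 and 171 CPM against 327 and 229 CPM, just past 2-fold with both controls (log2 fold change 1.001, with 1.38 against control replicate 1 and 0.71 against control replicate 2). *SETD7*, a lysine methyltransferase, stood at 51.6 and 82.6 CPM against 136 and 130.2 CPM, just short of 2-fold (log2 fold change 0.99, with 1.37 against control replicate 1 and 0.698 against control replicate 2). *NLGN1*, a neuroligin of synapses, stood at 2.96 and 4.17 CPM against 8.32 and 7.87 CPM and was over 2-fold without passing the p threshold (log2 fold change 1.18, with 1.45 against control replicate 1 and 0.97 against control replicate 2). The calls of *NHLRC1*, *RNF43* and *ABCA12* did not hold without either CHD4 siRNA replicate, that of *NTN4* did not without replicate 1, and that of *ABCA12* did not without control replicate 1. Without CHD4 siRNA replicate 1 the log2 fold changes were 1.37 (*NHLRC1*), 0.85 (*RNF43*), 0.72 (*ABCA12*) and 1.55 (*NTN4*), and without replicate 2 they were 2.25 (*NHLRC1*), 1.43 (*RNF43*) and 1.25 (*ABCA12*). The call of *NAALADL2* held in all 4 fits that left out a library. All 7 lay above both controls in both CHD4 siRNA libraries, as did 20.1% of all genes tested.

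Germline and cancer-testis genes, which are silent in most somatic tissue, included some of the largest increases. Of 44 listed, 29 were in the table, 13 were tested, 4 rose and none fell, and all 4 were over 2-fold higher against each control. Of the 4, 3 passed the filter through the CHD4 siRNA libraries alone, so a difference was built into their selection. *LIN28A*, an RNA-binding protein of stem cells that blocks let-7 processing, was expressed in control cells and stood at 52.1 and 57.8 CPM against 202 and 239 CPM. The groups did not overlap, and its log2 fold change was 2.004 ± 0.37 (SE), with 2.08 against control replicate 1 and 1.94 against control replicate 2. *TEX19* and *MAGEA10* are given above. *MAGEC2* had 0 and 22 counts in the controls and 133 and 69 upon silencing, at least 39.8-fold higher than the floor of 3 counts in control replicate 1 and 2.44 on the log2 scale against control replicate 2. *TEX19*, *MAGEA10* and *LIN28A* were called in each of the 4 fits that left out a library. Other members were not called: *MAGEA3* (log2 fold change -0.198, with -0.09 against control replicate 1 and -0.28 against control replicate 2) and *MAGEA6* (-0.06, with 0.11 against control replicate 1 and -0.21 against control replicate 2), with reads that near-identical copies share, and *DMC1*, the meiotic recombinase (0.06, with 0.75 against control replicate 1 and -0.38 against control replicate 2).

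Of 44 genes of synaptic and neuronal adhesion, 17 were tested, 2 rose and none fell, with a median of 0.40 (0.37 against each control alone). They were *SLITRK6*, given above, which passed the filter through the CHD4 siRNA libraries alone, and *FLRT3*, a leucine-rich repeat receptor of axon guidance, at 1.66 and 3.42 CPM against 9.06 and 7.71 CPM (log2 fold change 1.72 ± 0.64 SE, with 2.33 against control replicate 1 and 1.299 against control replicate 2). Of 19 genes of neurotransmission and neuronal identity tested, 2 rose. *TUBB3*, the neuronal beta-tubulin, stood at 12.04 and 11.2 CPM against 35.7 and 43.4 CPM (log2 fold change 1.76 ± 0.41 SE, with 1.71 against control replicate 1 and 1.83 against control replicate 2). *SYP*, a synaptic vesicle protein, stood at 8.799 and 3.72 CPM against 15.3 and 18.8 CPM (log2 fold change 1.44, with 0.95 against control replicate 1 and 2.204 against control replicate 2). Clustered protocadherins are adhesion proteins that give neurons a surface identity. Of 53 listed, 48 were tested and none was called, with 32 higher against each control and a median of 0.61 (0.72 and 0.50 against control replicates 1 and 2). Of all genes tested, 3781 were higher against each control. Members of a cluster share exons, so their counts are not independent.

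Of 42 genes of striated muscle contraction, 12 were tested, 3 rose and none fell. The median was 0.82 (0.77 and 1.02 against control replicates 1 and 2). *RYR1*, a calcium release channel, stood at 9.81 and 6.77 CPM against 18.95 and 17.8 CPM (log2 fold change 1.15, with 0.905 against control replicate 1 and 1.45 against control replicate 2). *RYR2*, its cardiac form, had 0 and 25 counts in the controls and 123 and 84 upon silencing, at least 40.8-fold higher than the floor in control replicate 1 and 2.28 on the log2 scale against control replicate 2. *ACTN2*, a Z-disc actinin, stood at 0.721 and 0.968 CPM against 3.51 and 2.86 CPM (log2 fold change 1.904 ± 0.75 SE, with 2.13 against control replicate 1 and 1.72 against control replicate 2). Of the 12, 2 passed the filter through the CHD4 siRNA libraries alone, *RYR2* and *ACTN2*, and none of the 3 calls held without CHD4 siRNA replicate 1.

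Of 38 integrins, laminins, collagens and netrins tested, 5 rose and none fell, 4 of them over 2-fold against each control, with a median of 0.36 (0.28 and 0.63 against control replicates 1 and 2). *LAMC3*, a laminin gamma chain, stood at 2.16 and 1.27 CPM against 10.4 and 6.99 CPM (log2 fold change 2.34 ± 0.65 SE, with 2.003 against control replicate 1 and 2.78 against control replicate 2). *COL5A2*, a fibrillar collagen chain, stood at 5.698 and 4.69 CPM against 16.5 and 18.6 CPM (log2 fold change 1.76 ± 0.47 SE, with 1.62 against control replicate 1 and 1.91 against control replicate 2), and its partner *COL5A1* had 1.48, with 2.43 against control replicate 1 and 0.93 against control replicate 2. *LAMB3*, a laminin chain of epithelial basement membrane, stood at 7.36 and 5.21 CPM against 12.1 and 18.5 CPM (1.06 against control replicate 1 and 1.57 against control replicate 2). Of 23 growth factor receptors tested, 3 rose and none fell. *EPHB2* and *EPHA4*, ephrin receptors, had log2 fold changes of 1.54 (1.34 against control replicate 1 and 1.77 against control replicate 2) and 1.36 (1.41 against control replicate 1 and 1.32 against control replicate 2). *AXL*, the receptor of GAS6, stood at 5.27 and 6.63 CPM against 16.5 and 13.2 CPM (log2 fold change 1.32, with 1.495 against control replicate 1 and 1.18 against control replicate 2). None of these 8 calls held without CHD4 siRNA replicate 1.

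In the WNT pathway 3 of 27 members tested rose and none fell. *CXXC4*, an inhibitor of WNT signalling, stood at 2.74 and 5.73 CPM against 34.8 and 29.8 CPM and was called in each of the 4 fits that left out a library (log2 fold change 2.93 ± 0.53 SE, with 3.55 against control replicate 1 and 2.502 against control replicate 2). The ligand *WNT3A* stood at 0.433 and 1.04 CPM against 4.16 and 4.05 CPM (log2 fold change 2.46 ± 0.79 SE, with 3.22 against control replicate 1 and 1.98 against control replicate 2) and passed the filter through the CHD4 siRNA libraries alone, and *RNF43* is given above. In the TGF-beta pathway 3 of 32 rose and none fell, and 2 of the 3 passed the filter through the CHD4 siRNA libraries alone. The ligand *TGFB2* had 1 and 9 counts in the controls and 27 and 26 upon silencing, 31.4 times control replicate 1 (95% counting interval 5.39 to 1262) and 1.76 on the log2 scale against control replicate 2. The receptor *BMPR1B* stood at 1.803 and 6.55 CPM against 25.8 and 13.04 CPM (log2 fold change 2.21 ± 0.71 SE, with 3.42 against control replicate 1 and 1.57 against control replicate 2). In the NOTCH pathway 3 of 21 rose and none fell: the coactivator *MAML2* (2.03, with 2.12 against control replicate 1 and 1.96 against control replicate 2), the target *HEY1* (2.03, with 2.68 against control replicate 1 and 1.598 against control replicate 2) and the regulator *DTX1* (1.27, with 1.16 against control replicate 1 and 1.397 against control replicate 2). Of the calls in these pathways, that of *CXXC4* alone held without CHD4 siRNA replicate 1.

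Several stress genes were higher in CHD4 siRNA replicate 1 than in replicate 2. The integrated stress response raises ATF4 targets when translation is curbed, the unfolded protein response raises chaperones of the endoplasmic reticulum, and the heat shock response raises cytosolic chaperones. Of 25 genes of the integrated stress response tested, 3 rose and 2 fell. *DDIT3*, which encodes CHOP, stood at 10.6 and 16.01 CPM against 149 and 18.2 CPM, with CHD4 siRNA replicate 1 far above and replicate 2 next to the controls. Its log2 fold change was 2.65 ± 0.88 (SE), with 2.98 against control replicate 1 and 2.397 against control replicate 2, and it was 0.45 without CHD4 siRNA replicate 1. *SLC7A11*, the cystine importer, stood at 0.649 and 3.499 CPM against 27.2 and 5.405 CPM (log2 fold change 2.97 ± 1.01 SE, with 4.62 against control replicate 1 and 2.22 against control replicate 2). *CHAC1*, which degrades glutathione, stood at 0.793 and 0.670 CPM against 4.53 and 2.78 CPM (log2 fold change 2.303 ± 0.77 SE, with 2.18 against control replicate 1 and 2.44 against control replicate 2), and passed the filter through the CHD4 siRNA libraries alone. None of these 3 calls held without replicate 1. *SLC7A5*, a leucine importer, fell, at 2742 and 1162 CPM against 635 and 785 CPM (log2 fold change -1.46, with -1.95 against control replicate 1 and -0.699 against control replicate 2). *ATF4* itself was not called at 263 and 132 CPM against 323 and 140.1 CPM (0.23, with -0.18 against control replicate 1 and 0.82 against control replicate 2). Of 25 members, 4 were higher in replicate 2 than in replicate 1, without a share of all genes beside it.

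Of 24 genes of the unfolded protein response, 2 rose and 1 fell. *HSPA5*, the chaperone BiP, stood at 839.6 and 733 CPM against 1919.6 and 1324 CPM, and *HSP90B1*, its partner, at 658 and 992 CPM against 2048 and 1446 CPM. Their log2 fold changes were 1.04 (0.95 against control replicate 1 and 1.16 against control replicate 2) and 1.08 (1.41 against control replicate 1 and 0.83 against control replicate 2), so neither was over 2-fold against both controls. The gene that fell was *XBP1*.

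Of 23 heat shock and chaperone genes tested, *HSPA6*, a strictly inducible chaperone, rose and 2 fell. As a list they did not share a higher replicate 1. Of the 23, 13 were higher in CHD4 siRNA replicate 2, with a median ratio of replicate 2 to replicate 1 of 1.02. *HSPA6* stood at 3.53 and 1.34 CPM against 61.5 and 3.82 CPM, with CHD4 siRNA replicate 1 far above the controls and replicate 2 next to control replicate 1. *HSPA6* changed by 3.74 ± 1.19 (SE) on the log2 scale, with 3.199 against control replicate 1 and 4.604 against control replicate 2, but 0.64 without CHD4 siRNA replicate 1. *HSPA1A* and *HSPA1B*, near-identical inducible genes, were also highest in CHD4 siRNA replicate 1, at 14.4 and 5.14 CPM against 51.1 and 6.99 CPM and 6.27 and 5.06 CPM against 38.00 and 5.09 CPM, and were not called. *HSPA1A* had 1.57 on the log2 scale, with 1.01 against control replicate 1 and 2.51 against control replicate 2, and *HSPA1B* had 1.92, with 1.77 against control replicate 1 and 2.09 against control replicate 2. *HSPB1*, a small heat shock protein, fell, at 1079.9 and 239.8 CPM against 138 and 175 CPM (log2 fold change -2.08, with -2.79 against control replicate 1 and -0.604 against control replicate 2). *FKBP4*, a cochaperone of steroid receptors, fell at 923 and 681 CPM against 378 and 334 CPM (-1.37 against control replicate 1 and -0.92 against control replicate 2).
The promoter of *HSPA6* is printed because heat shock factor binds such repeats. It comes from RefSeq (GRCh38.p14), with the heat shock element in capitals. Both strands were searched, and the match reads as a heat shock element on either strand.
HSPA6 (chr1:161524290-161524589, plus strand): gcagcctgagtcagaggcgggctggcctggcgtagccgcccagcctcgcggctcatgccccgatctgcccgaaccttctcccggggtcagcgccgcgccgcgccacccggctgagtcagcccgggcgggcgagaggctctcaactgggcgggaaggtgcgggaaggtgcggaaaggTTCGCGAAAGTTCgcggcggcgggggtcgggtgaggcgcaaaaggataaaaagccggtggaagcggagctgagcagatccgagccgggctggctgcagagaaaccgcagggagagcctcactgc
Of the other members tested, 5 of 19 with a promoter held a match, as did 0.61% of all genes with a promoter window and 0.49% of all windows. A match does not show that the factor was bound.

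p53 targets moved in both directions. Of 26 tested, 2 rose and 1 fell, with a median of 0.10 (0.29 and 0.03 against control replicates 1 and 2). *PERP* is given above. *BBC3*, the apoptosis inducer PUMA, stood at 2.16 and 2.16 CPM against 10.4 and 4.05 CPM (log2 fold change 1.74 ± 0.71 SE, with 1.73 against control replicate 1 and 1.75 against control replicate 2). *CDKN1A* was the member that fell. None of 21 apoptosis regulators tested was called.

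Interferon-stimulated genes separated the 2 CHD4 siRNA libraries. These genes answer type I interferon and foreign RNA. Of 34 tested, 29 were lower than both controls in CHD4 siRNA replicate 1, and 28 were higher than both controls in replicate 2. In 33 of the 34 replicate 2 exceeded replicate 1, with a median ratio of 4.59. The same was not counted over all genes tested, so these counts have no background share beside them. *IFIT1*, which binds foreign RNA, stood at 63.2 and 84.6 CPM against 14.9 and 141 CPM, *ISG15*, a ubiquitin-like modifier, at 54.4 and 38.4 CPM against 6.01 and 81.4 CPM and *OAS1*, an RNA-sensing enzyme, at 71.04 and 39.9 CPM against 8.598 and 78.7 CPM. None of these was called, with log2 fold changes of 0.08 (0.31 against control replicate 1 and -0.102 against control replicate 2), -0.09 (-0.31 against control replicate 1 and 0.20 against control replicate 2) and -0.34 (-0.699 against control replicate 1 and 0.14 against control replicate 2). *SAMD9L*, an antiviral factor, was the member that rose, at 0.649 and 2.01 CPM against 3.61 and 10.2 CPM (log2 fold change 2.37 ± 0.87 SE, with 3.395 against control replicate 1 and 1.79 against control replicate 2), and passed the filter through the CHD4 siRNA libraries alone. The list's median was 0.08 with all libraries (0.21 and 0.02 against control replicates 1 and 2). It was 0.72 without CHD4 siRNA replicate 1 and -1.47 without replicate 2, so its sign turned with the library left out. What separated the libraries was not tested.

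Of 14 targets of LXR, the sterol sensor, 2 rose and none fell. *ABCA1*, the exporter of cellular cholesterol, stood at 5.77 and 10.3 CPM against 89.7 and 47.8 CPM and was called in each of the 4 fits that left out a library (log2 fold change 3.09 ± 0.53 SE, with 3.57 against control replicate 1 and 2.74 against control replicate 2). *MYLIP*, the ligase that degrades the LDL receptor, stood at 16.5 and 19.9 CPM against 71.2 and 40.1 CPM (log2 fold change 1.61 ± 0.45 SE, with 1.75 against control replicate 1 and 1.496 against control replicate 2). Of 23 genes of cholesterol synthesis tested, 2 fell and none rose, with a median of -0.64 (-0.71 and -0.36 against control replicates 1 and 2). Of the 23, 13 (56.5%) were lower against each control, beside 26.6% of all genes tested. *INSIG1*, which holds SREBP in the endoplasmic reticulum, stood at 44.5 and 44.9 CPM against 21.2 and 15.7 CPM, with nearly equal controls (log2 fold change -1.28 ± 0.40 SE, with -1.27 against control replicate 1 and -1.27 against control replicate 2). *EBP*, a sterol isomerase, had -1.12 on the log2 scale, with -1.34 against control replicate 1 and -0.86 against control replicate 2. Of 19 genes of fatty acid synthesis, *THRSP*, *FASN* and *SREBF1* fell. *FASN*, fatty acid synthase, stood at 2808 and 1086 CPM against 792 and 959.7 CPM (log2 fold change -1.15, with -1.68 against control replicate 1 and -0.299 against control replicate 2), so its call rested on control replicate 1. *SREBF1*, a factor of lipid synthesis, had -1.104, with -1.57 against control replicate 1 and -0.403 against control replicate 2.

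Of 24 genes of glycolysis, *SLC2A3*, which passed the filter through the CHD4 siRNA libraries alone, rose and 3 fell. *LDHA*, lactate dehydrogenase, stood at 2141 and 1940.5 CPM against 791 and 882 CPM (log2 fold change -1.29 ± 0.34 SE, with -1.36 against control replicate 1 and -1.203 against control replicate 2). *ALDOA* and *GAPDH*, enzymes of the middle of the pathway, had -1.19 and -1.08 with both controls, -1.67 and -1.499 against control replicate 1 alone and -0.46 and -0.47 against control replicate 2 alone. Of 18 targets of MondoA and of insulin-FOXO signalling, 3 rose and none fell. The median was 0.42 (0.43 and 0.68 against control replicates 1 and 2). *ARRDC3*, an alpha-arrestin, stood at 30.4 and 39.9 CPM against 138 and 81.6 CPM (log2 fold change 1.64 ± 0.43 SE, with 1.85 against control replicate 1 and 1.47 against control replicate 2). *TRIB1*, a pseudokinase, stood at 15.7 and 17.9 CPM against 61.7 and 27.4 CPM (1.51 against control replicate 1 and 1.33 against control replicate 2), and *KLHL24* had 1.32, with 1.996 against control replicate 1 and 0.87 against control replicate 2.

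In the housekeeping machinery, none of the calls below held without control replicate 1. Of 73 nuclear genes of oxidative phosphorylation tested, 4 fell, and none of these was over 2-fold lower against control replicate 2. The list's median was -0.32 (-0.41 and -0.29 against control replicates 1 and 2). Of the 73, 38 (52.1%) were lower against each control and 6 (8.2%) higher, beside 26.6% and 29.3% of all genes tested. *NDUFS8*, a complex I subunit, stood at 132 and 32.1 CPM against 20.1 and 26.4 CPM, with -2.503 against control replicate 1 and -0.45 against control replicate 2. Of 75 cytoplasmic ribosomal protein genes, 1 fell. It was *RPS28*, at 982 and 70.9 CPM against 113 and 86.1 CPM, with -3.303 against control replicate 1 and 0.50 against control replicate 2, so control replicate 1 alone was high. Of 30 proteasome genes *PSMD8* fell, of 29 ribosome biogenesis genes *NOLC1* rose and *BOP1* fell, and none of 19 aminoacyl-tRNA synthetases was called. The proteasome median was -0.28 (-0.17 and -0.34 against control replicates 1 and 2), with 14 of 30 lower against each control and 2 higher. Medians were -0.03 for ribosomal proteins (-0.08 and 0.12), -0.14 for ribosome biogenesis (-0.05 and -0.10) and -0.03 for the synthetases (0.19 and -0.09). On the log2 scale *PSMD8* had -1.41 (-1.98 against control replicate 1 and -0.44 against control replicate 2), *BOP1* had -1.301 (-1.79 against control replicate 1 and -0.54 against control replicate 2) and *NOLC1* had 1.02 (1.19 against control replicate 1 and 0.89 against control replicate 2).

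**Figure D5:**
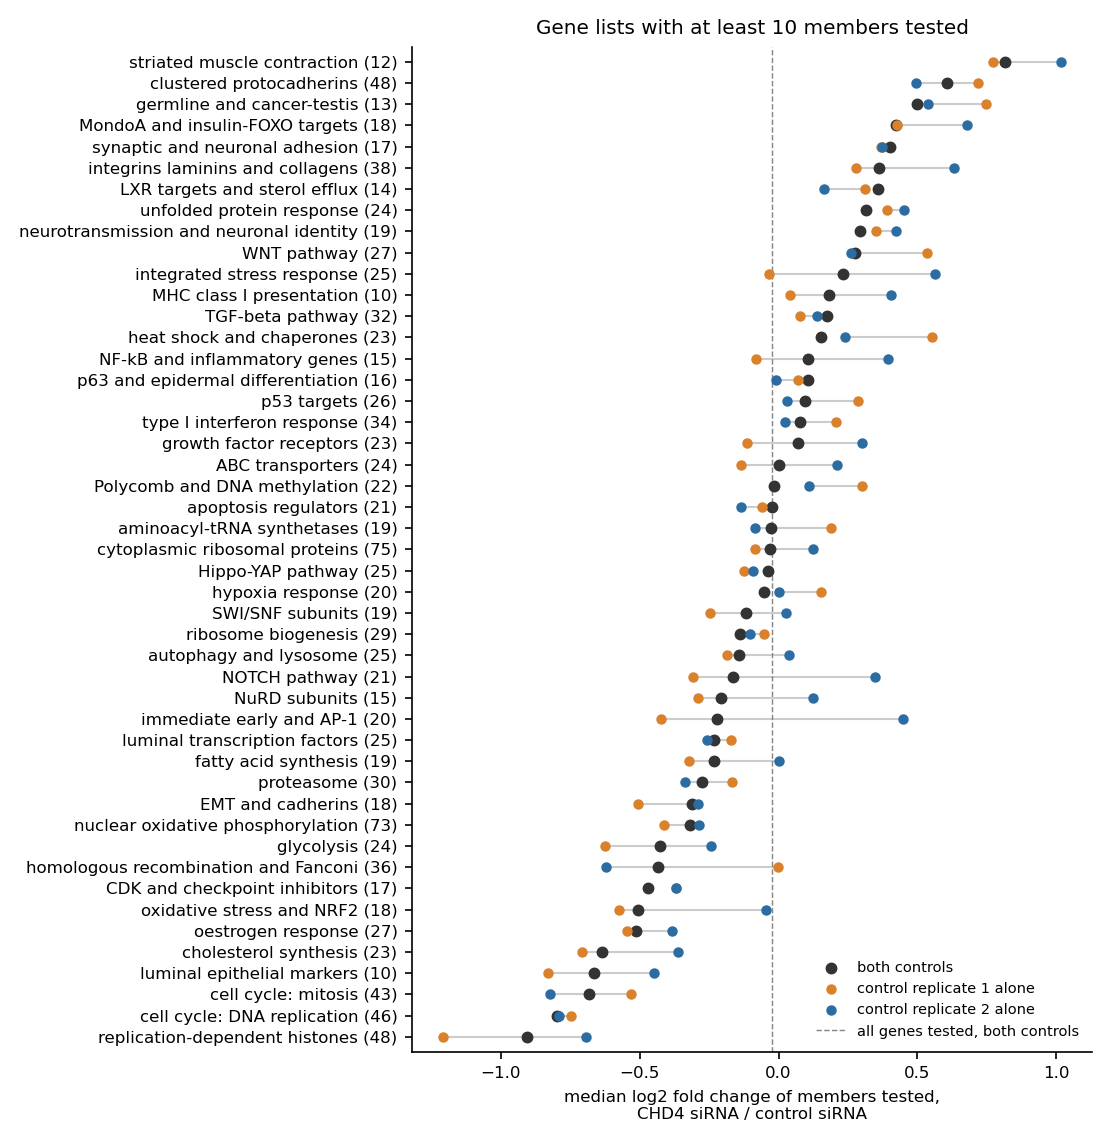
Median log2 fold change upon silencing *CHD4* (horizontal axis) of the tested members of each gene list with at least 10 members tested, whose number stands in brackets. Black points use both controls, orange points control siRNA replicate 1 alone and blue points control siRNA replicate 2 alone, and the dashed line is the median of all genes tested, -0.02. Replication-dependent histones lie lowest at -0.91 and striated muscle contraction highest at 0.82.

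The 41 genes that passed an adjusted p under 0.05 in both DESeq2 and edgeR's likelihood ratio test held 30 that rose and 11 that fell. The lower set was *CHD4*, *EFTUD2*, *FAM65C*, *KCNK5*, *KPNA2*, *KRT8*, *LITAF*, *NXPH3*, *PUDP*, *RBM24* and *TYMS*. Among the higher set were *ABCA1*, *CXXC4*, *DHRS2*, *LIN28A*, *NAALADL2*, *NTN4*, *PTGS1*, *TEX19*, *THSD7A*, *THY1* and *TP63*. It also held *CD36*, a fatty acid receptor, at 2.24 and 2.903 CPM against 17.8 and 14.1 CPM, with 2.83 against control replicate 1 and 2.47 against control replicate 2, and *CCDC80*, a matrix protein, at 1.298 and 0.968 CPM against 11.3 and 8.27 CPM, with 2.901 against control replicate 1 and 3.33 against control replicate 2. Of the 30, 14 passed the filter through the CHD4 siRNA libraries alone. Without a library in turn, 40 of the 336 genes that rose and 12 of the 368 that fell kept their call in all 4 fits.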

How the data were processed

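RNA-seq counts of 4 libraries were used, 2 of control siRNA and 2 of CHD4 siRNA, grouped by their labels. The deposited values are raw counts per gene symbol: the authors trimmed reads, aligned them with STAR and counted them with HTSeq (version 0.9.0 in the submitters' processing notes, which also name CASAVA 1.8 and hg38). The annotation and strand setting are not given in the sources used here, so overlapping genes may share reads. The libraries held 10754802 to 14668358 counts, and the floor of 3 counts was 0.216 to 0.277 CPM. Intervals and floors cover counting error only. No column of per-sample values was left unmapped.

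Genes over 2 CPM in at least 2 libraries were tested with edgeR 4.0.16 in R 4.3.3 (TMM factors, glmQLFit and glmQLFTest, prior count 0.125, two-sided, Benjamini-Hochberg over 12918 genes). Standard errors (SE) were taken from each gene's fold change and F statistic. A call is a fold change over 2 with an unadjusted p under 0.05, as in the study. Fits with 1 control left out gave the values against each control alone, and there the lone library is assumed to vary like the other group. DESeq2 1.42.0, edgeR's likelihood ratio test, other scalings, filters and prior counts, all 6 RNA-seq libraries in 1 fit, a replicate block and leaving out each library were alternatives. The test was run on simulated data. Figures used Python 3.11.15 and matplotlib 3.10.9. Gene lengths, biotypes and promoters came from RefSeq (GRCh38.p14), where 12711 of 12918 tested genes (98.4%) matched.

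Named genes were the NuRD subunits, the 15 farthest in each direction by the smaller of the 2 fold changes against each control (called, over 2-fold against each control, groups apart, at least 5 CPM in the higher group), up to 4 called members of each list with the largest change, members that define a list, and genes the study names for *CHD4* silencing. Further members, and *CD36* and *CCDC80*, were chosen after their values were seen. The 55 gene lists and the members were chosen with earlier results of these data known. ChIP-seq peaks and *TRPS1* silencing were left out as other experiments. Neither the labels nor the methods state whether the replicate numbers pair the libraries, and the main fit did not pair them. A result for 1 further gene is not reported here.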

Additional observations from a re-analysis of the deposited data

How the results depend on the processing

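Of the 336 genes called higher and 368 called lower upon silencing *CHD4*, the count higher was 730 with no filter on low counts and the count lower was 673 with no filter and 222 with library sizes alone. Of the genes called higher, 263 were also over 2-fold higher against each control. That count came to 555 with no filter, 404 with over 0.5 CPM in at least 2 libraries and 161 with over 2 CPM in every library. Of the genes called lower, 111 were also over 2-fold lower against each control, and that count came to 67 with library sizes alone. At an adjusted p under 0.05, where the quasi-likelihood test of edgeR passed 0 genes, 58 passed with its likelihood ratio test, 50 with DESeq2 and 111 with no filter. Leaving out 1 library in turn, the counts ran from 65 (without CHD4 siRNA replicate 1) to 2266 (without control siRNA replicate 2) higher, from 55 to 1729 lower, from 0 to 3968 at the adjusted p, from 63 to 144 higher against each control and from 33 to 99 lower against each control. The cause was not tested, but the common dispersion was 0.151 with all libraries, 0.0478 without either control and 0.250 without either CHD4 siRNA library. Counts against each control could not be made with a control left out. The log2 fold change of *CHD4* ran from -2.42 to -1.59 (without CHD4 siRNA replicate 2, no longer called). Without control siRNA replicate 1, *CDKN2A* turned from -2.24 to 0.013 and *RPS28* from -2.40 to 0.50, and without control siRNA replicate 2 they were at -3.08 and -3.30.

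With the replicate number as a block, 582 genes were higher and 379 lower, and 44 passed the adjusted p. Libraries of the same number deviated together with a correlation of 0.0128 across genes. This cannot decide whether the numbers pair the libraries, since control siRNA replicate 1 stood apart, and the main fit used no block. Of 1742 refits over 127 named genes, 1514 kept direction and side of the threshold, 219 lost the threshold in the same direction, 7 gained it and 2 turned direction. Depth limits genes near the floor of 3 counts per library.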

Other observations

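Gene lists with no place in the comparisons above held few calls. Of 15 NF-kB and inflammatory genes tested, the chemokine *CXCL1* rose, from 0 and 9 counts to 24 and 44, at least 13.4-fold higher than the floor of 3 counts in control replicate 1 and 2.09 on the log2 scale against control replicate 2. It passed the filter on low counts through the CHD4 siRNA libraries alone. Of 25 Hippo pathway genes, *AMOTL1*, a YAP-binding angiomotin, rose at 13.8 and 17.7 CPM against 51.96 and 39.7 CPM, with 1.72 against control replicate 1 and 1.38 against control replicate 2. Of 24 ABC transporters, *ABCC11* fell at 264 and 263 CPM against 113 and 75.8 CPM, with -1.48 against control replicate 1 and -1.46 against control replicate 2, beside the increases in *ABCA1* and *ABCA12*. *MYC*, of 20 immediate early genes, *BNIP3*, of 20 hypoxia genes, and *UHRF1*, of 22 Polycomb and DNA methylation genes, fell, and none of these 3 calls held without control replicate 1. Their log2 fold changes were -1.63 (-2.18 against control replicate 1 and -0.72 against control replicate 2) for *MYC*, -1.51 (-2.15 against control replicate 1 and -0.32 against control replicate 2) for *BNIP3* and -1.39 (-1.799 against control replicate 1 and -0.79 against control replicate 2) for *UHRF1*. Of 25 autophagy and lysosome genes, *WIPI1* and *ATG4D* fell, and 1 of them was over 2-fold lower against each control. *WIPI1* had a log2 fold change of -1.32, with -1.51 against control replicate 1 and -1.09 against control replicate 2, and *ATG4D* one of -1.22, with -1.61 against control replicate 1 and -0.68 against control replicate 2. None of 19 SWI/SNF subunits, 7 other chromodomain remodelers or 10 genes of MHC class I presentation was called. Their medians were -0.12, 0.33 and 0.18. Against control replicate 1 alone they were -0.25, 0.40 and 0.04, and against control replicate 2 alone 0.03, 0.07 and 0.41. The SWI/SNF median with both controls was 0.01 with library sizes alone.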
